A study of Mus musculus with 2 samples.

Results

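Cortical intermediate progenitors and young neurons were picked out of single-cell RNA sequencing of mouse embryonic brain (stage E12.5). Members were chosen by their own transcripts: a barcode was a member when it held transcripts of at least 3 of 7 genes of the glutamatergic cortical lineage (Eomes, Neurog2, Neurod1, Neurod2, Neurod6, Tbr1 and Bhlhe22). It also held none of Gad1 and Gad2, the enzymes that make GABA, and at most 1 of the endothelial genes Pecam1, Cdh5, Kdr and Flt1. This gave 1253 members among 27041 barcodes that passed the cell filters, with 724 in the Foxq1iECKO library and 529 in the Foxq1flox/flox library. The study digested brain tissue, enriched cells with beads against CD31, a surface protein of endothelial cells, and made 1 library per genotype. The labels call the cells endothelial, and 20.2% of kept barcodes in Foxq1iECKO and 23.6% in Foxq1flox/flox held 3 or more of the 4 endothelial genes above, so the members are neural cells that remained in an endothelial preparation. Foxq1 encodes a forkhead factor, and the Foxq1flox/flox library is used here as the control. The labels name the other genotype only as Foxq1iECKO. The sources used here do not give the Cre driver, its induction, the other alleles of either group or the number of embryos.

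In the embryonic cortex, radial glia that line the ventricle divide to renew themselves and to produce intermediate progenitors, which divide again away from the ventricle and give rise to glutamatergic neurons. Cells on this path switch on Neurog2 and Eomes (which encodes TBR2), then Neurod1, and then Neurod2, Neurod6 and Tbr1 as they become neurons. At this stage the path yields preplate and deep-layer neurons, while Reelin-secreting Cajal-Retzius cells reach the cortical surface from the hem, the septum and the border with the ventral telencephalon.

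The upstream sequences of Neurod2, Neurod6 and Eomes are shown because members were chosen for transcripts of these genes together and because NEUROG and NEUROD proteins bind E-boxes, of the form CANNTG. Each is the stretch from 250 to 11 bases upstream of the RefSeq start, read 5′ to 3′ on the gene's own strand (GRCm38.p6, RefSeq), with E-boxes in capitals. The Neurod2 window is chr11:98329656-98329895 on the minus strand, the Neurod6 window chr6:55681274-55681513 on the minus strand, and the Eomes window chr9:118477939-118478178 on the plus strand.
Neurod2: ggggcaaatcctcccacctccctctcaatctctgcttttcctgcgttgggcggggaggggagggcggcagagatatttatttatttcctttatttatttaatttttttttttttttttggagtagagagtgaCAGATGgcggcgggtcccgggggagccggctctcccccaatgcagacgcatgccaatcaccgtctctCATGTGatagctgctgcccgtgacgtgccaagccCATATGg
Neurod6: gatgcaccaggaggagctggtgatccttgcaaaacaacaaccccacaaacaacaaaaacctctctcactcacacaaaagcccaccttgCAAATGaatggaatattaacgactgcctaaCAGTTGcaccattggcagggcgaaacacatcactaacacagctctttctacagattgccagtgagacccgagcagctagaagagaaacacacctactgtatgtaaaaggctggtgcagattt
Eomes: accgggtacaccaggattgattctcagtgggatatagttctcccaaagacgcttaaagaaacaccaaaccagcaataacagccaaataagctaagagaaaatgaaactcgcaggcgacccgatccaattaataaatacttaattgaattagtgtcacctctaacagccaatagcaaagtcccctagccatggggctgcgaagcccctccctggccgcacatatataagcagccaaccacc
The Neurod2 window held 3 E-boxes, which began 118, 51 and 17 bases upstream of the start, and the Neurod6 window held 2, at 162 and 132 bases. The windows of Neurod1 and Tbr1 held 1 each, at 242 and 46 bases, and those of Eomes and Neurog2 held none, which says only that these letters are not in these windows. Of the 32851 mouse windows of the same length, 65% held at least 1 CANNTG, 30.3% held 2 or more and 11.3% held 3 or more. The motif reads the same on both strands, so each match counts once.

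The libraries held 15108 barcodes in Foxq1iECKO and 15837 in Foxq1flox/flox, with 72445925 and 76580165 UMIs (unique molecular identifiers, each counted as 1 transcript molecule). With at least 1000 UMIs, at least 500 genes and at most 20% mitochondrial UMIs required, 13108 barcodes of Foxq1iECKO and 13933 of Foxq1flox/flox were kept. Members had a median of 4078 UMIs in Foxq1iECKO (lowest 1036, highest 24938) and 4019 in Foxq1flox/flox (lowest 1041, highest 15538), and a median of 2131 and 2126 genes. The median mitochondrial share of their UMIs was 5.64% and 5.09%. The doublet caller marked 54 members (7.46%) in Foxq1iECKO and 24 (4.54%) in Foxq1flox/flox, and these stayed in. The 2 libraries shared 270 barcode sequences, 22 of them borne by a member. With 1 library per genotype no difference between genotypes has a replicate check, no test was possible, and brackets hold 95% intervals that cover counting error only.

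Members made up a larger share of the Foxq1iECKO library. They were 5.52% [5.14, 5.93] of kept barcodes in Foxq1iECKO and 3.80% [3.49, 4.13] in Foxq1flox/flox, a log2 ratio of 0.54 [0.38, 0.71]. The same sort left other neural cells in both libraries, and these moved differently. Radial glia, called by 3 or more radial glia genes, were 4.20% of kept barcodes in Foxq1iECKO and 3.84% in Foxq1flox/flox (log2 ratio 0.13 [-0.05, 0.30]). GABAergic cells were 2.66% and 3.98% (-0.58 [-0.78, -0.39]), and other neurons 3.59% and 6.65% (-0.89 [-1.05, -0.73]). Of the 4 neural classes together, members were 34.6% of 2093 barcodes in Foxq1iECKO and 20.8% of 2545 in Foxq1flox/flox. How far dissection or the bead step set the share of members was not tested.

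The 7 genes that chose the members are given as a description. Neurod6, Neurod2, Eomes, Neurog2, Neurod1, Tbr1 and Bhlhe22 were read in 76.4%, 83.7%, 60.2%, 54.1%, 75.1%, 68.4% and 61.6% of members in Foxq1iECKO. In Foxq1flox/flox the shares were 79.2%, 88.5%, 42.9%, 42.7%, 66.9%, 70.3% and 53.9%, so Eomes and Neurog2 stood out as more often read in Foxq1iECKO members. At the edge of the rule, the members with exactly 3 of the genes numbered 146 in Foxq1iECKO and 156 in Foxq1flox/flox and had a median of 3558.5 and 3630 UMIs. Barcodes just outside, with exactly 2 of the genes and the other conditions met, numbered 213 and 172 and had a median of 3565 and 3376 UMIs. Of barcodes with 3 or more of the genes, 41 in each library were left out for a Gad1 or Gad2 UMI.

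**Figure D1:**
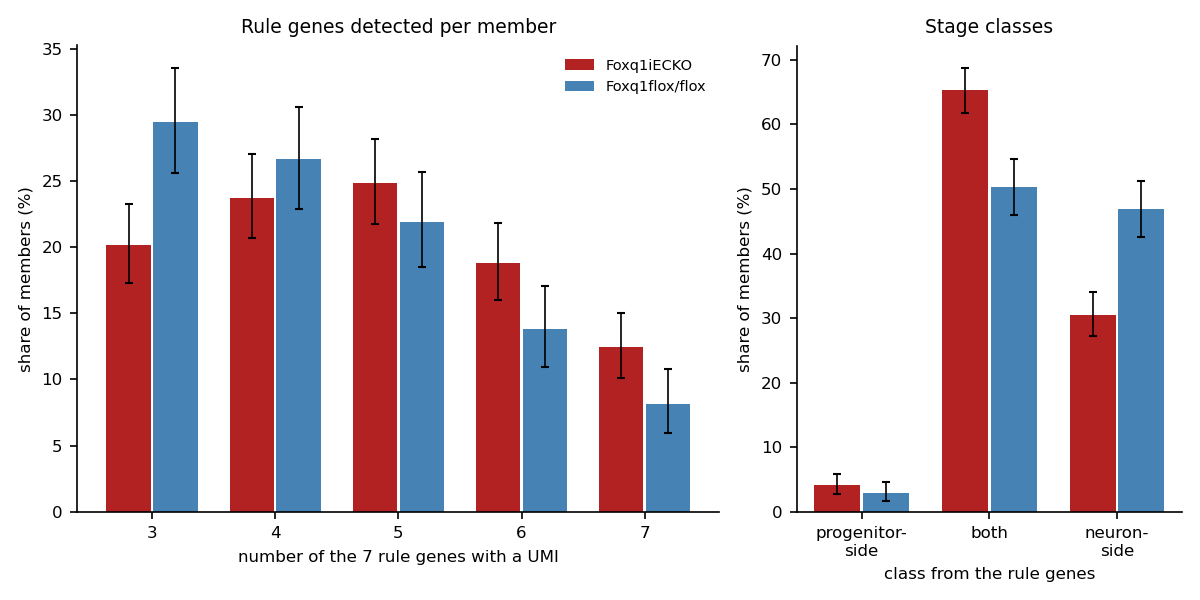
Share of members (%) with a UMI of 3, 4, 5, 6 or 7 of the 7 genes that chose them (left) and in each stage class (right), in Foxq1iECKO (red) and Foxq1flox/flox (blue); bars are the shares and lines exact binomial 95% intervals. Neuron-side members were 30.5% in Foxq1iECKO and 46.9% in Foxq1flox/flox, and members with all 7 genes 12.4% and 8.13%.

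Each member fell into 1 of 3 stage classes by the same genes. Progenitor-side members (Eomes or Neurog2, with none of Neurod2, Neurod6 and Tbr1) numbered 30 (4.14%) in Foxq1iECKO and 15 (2.84%) in Foxq1flox/flox. Members with genes of both sides numbered 473 (65.3%) and 266 (50.3%). Neuron-side members, without Eomes or Neurog2, numbered 221 (30.5% [27.2, 34.0]) and 248 (46.9% [42.6, 51.2]), a log2 ratio of -0.62 [-0.89, -0.35]. When each barcode was first thinned to 1000 UMIs and membership read again, the ratio for neuron-side members was -0.30 [-0.64, 0.03], an interval that includes 0. Since progenitor-side members were few, neuron-side members are set below against all members with an Eomes or Neurog2 UMI, 503 in Foxq1iECKO and 281 in Foxq1flox/flox, a contrast chosen after the data were seen.

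The label was checked on genes outside the rule. Lhx2, a LIM homeobox factor of the cortical primordium, stood at 1145 CPM (UMIs per 1000000 in the cells summed) in Foxq1iECKO members and 896 CPM in Foxq1flox/flox members, against 392 and 344 CPM in the other neurons. Emx1, a homeobox gene of the dorsal telencephalon, held 74.8 and 90.2 CPM in members, against 10.7 and 2.86 CPM in the other neurons. After thinning to 2000 UMIs, 73.7% of Foxq1iECKO members and 64.8% of Foxq1flox/flox members held an Lhx2 transcript (82.9% and 74.5% at full depth, with 56 and 43 shallower members left out). Macrophages, which should lack it and so show the level of free RNA, had 1.57% and 0.782% (3.60% and 1.62% at full depth, at a median of 5173.5 and 5498.5 UMIs). At least 1 of Emx1, Emx2 and Lhx2 was read in 86.9% of Foxq1iECKO members and 79.4% of Foxq1flox/flox members. Slc17a6, the vesicular glutamate transporter of young neurons, was read in 45.8% and 48.4% of thinned members and 0.358% and 0.608% of thinned macrophages. The ventral telencephalic list summed to 216 CPM in Foxq1iECKO members and 183 CPM in Foxq1flox/flox members. The rule had removed barcodes with a Gad1 or Gad2 UMI, so this sum does not check the label. The diencephalic, midbrain and hindbrain list summed to 786 and 1154 CPM in members and 4001 and 4597 CPM in the other neurons. The other neurons were called by 3 or more genes of a list chosen for them. Where the 2 lists share genes, the higher sum follows from that choice and does not check the label. By Lhx2, Emx1 and Emx2 the cells are for the most part cortical, but these genes do not set members apart from radial glia. Thinned radial glia held Lhx2 in 62.5% and 65.35%. Of the pallial (cortical) regional list, 6 of 14 genes were at least 2-fold higher in members than in the other neurons in both libraries, and none lower. Against radial glia 1 of 15 was higher and 1 lower. The list summed to 5396 and 4689 CPM in members, 4538 and 4936 CPM in radial glia and 3162 and 4162 CPM in GABAergic cells. Genes of other brain regions read among them are given with the regional lists.

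Members stood apart from all other kept barcodes by genes of cortical glutamatergic neurons. Of 9672 genes at 10 or more CPM, 11.8% were at least 2-fold higher in members in both libraries, with both intervals excluding 1, and 16.3% lower. The 25 pan-neuronal genes included 22 higher and the 14 pallial genes 11 higher. Slc17a7, the other cortical vesicular glutamate transporter, held 22.0 CPM in Foxq1iECKO members and 34.8 CPM in Foxq1flox/flox members, against 0.373 and 0.179 CPM in other barcodes. Nhlh1, a bHLH factor of newborn neurons, held 112 and 106 CPM against 2.75 and 2.90 CPM. Sstr2, a somatostatin receptor of intermediate progenitors, held 337 and 295 CPM against 10.5 and 6.12 CPM. Rnd2, which acts in neuronal migration, held 425 and 436 CPM against 18.9 and 16.3 CPM, and Fezf2, the selector of subcerebral projection neurons, 218 and 231 CPM against 10.2 and 10.5 CPM. Prdm8, Cnr1 (the cannabinoid receptor), Cckar, Mpped1, Cntn2, Emx1 and Nrn1 completed the 12 genes highest by the lower interval limit in both libraries. This contrast is a description, since the rule chose cells in which such genes are read.

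Members were also set against the 3 other neural classes. Of 9105 genes, 7.14% were higher in members than in radial glia in both libraries and 4.45% lower, with 13 of 15 intermediate progenitor genes and 20 of 25 pan-neuronal genes among the higher and 17 of 20 radial glia genes among the lower. The median log2 ratio of the radial glia genes, 5 of which chose the radial glia, was -1.56 in Foxq1iECKO and -2.44 in Foxq1flox/flox. Against the other neurons, where 2.53% of 9198 genes were higher and 4.16% lower, 19 of 22 diencephalic, midbrain and hindbrain genes were lower in members. The other neurons were themselves called by 3 or more genes of a list chosen for them. Where that list and the regional list share genes, the contrast is a description. Tcf7l2, a thalamic and midbrain Wnt effector, held 195 and 296 CPM in members, against 1130 and 1378 CPM in the other neurons. Against the GABAergic class, where 2.40% of 9161 genes were higher and 3.31% lower, all 16 measured ventral telencephalic genes, some of which chose that class, were lower in members.

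Within the members, the neuron side was set against the Eomes/Neurog2 side in each library, and a gene was counted only where both libraries passed in the same direction. Of 8995 genes at 10 or more CPM, 4.77% were higher on the neuron side and 4.60% lower by the 2-fold rule in both libraries, with the genes of the rule left out. Against the few progenitor-side members alone, 2.89% of 8894 genes were higher on the neuron side and 2.90% lower, led by Ina, Mapt, Jph4 and Bcl11b among the higher and by Tfap2c, Sox3, Sox2 and Dbx1 among the lower. Against all Eomes/Neurog2 members, synaptic and transmitter genes had 16 of 26 higher, with median log2 ratios of 1.44 in Foxq1iECKO and 1.25 in Foxq1flox/flox. Pan-neuronal genes had 13 of 25 higher and none lower, with medians of 1.30 and 1.12. In the other direction stood 41 of 49 G2/M genes, 29 of 33 S phase genes, 9 of 15 intermediate progenitor genes, 8 of 19 radial glia genes and 7 of 18 Notch pathway genes. The medians of the G2/M list were -3.00 and -2.20. This contrast too is a description, since the sides were split by Eomes and Neurog2 UMIs of the same cells.

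The 12 genes highest on the neuron side, ranked by the lower interval limit in both libraries, included the following. Sphkap, an anchor of protein kinase A, held 53.0 CPM on the neuron side and 4.68 CPM on the Eomes/Neurog2 side of Foxq1iECKO, and 80.2 and 6.64 CPM in Foxq1flox/flox. Shtn1 (shootin 1), which acts in axon outgrowth, held 166 and 20.4 CPM in Foxq1iECKO and 183 and 24.1 CPM in Foxq1flox/flox. Glra2, the fetal glycine receptor subunit, held 70.7 and 4.34 CPM in Foxq1iECKO, with 75.7 and 10.8 CPM in Foxq1flox/flox. In each library these 3 genes were higher on the neuron side. The synaptic adhesion gene Lrfn5 gave 203 and 17.0 CPM in Foxq1iECKO and 202 and 37.3 CPM in Foxq1flox/flox. Jph4, a junctophilin of neurons, gave 533 and 69.2 CPM in Foxq1iECKO and 577 and 102 CPM in Foxq1flox/flox. Grin2b, Mapt (tau), Camk4, Mthfd1l, Cdh13, Ppp1r14c and Syt4 completed the 12.

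The 12 genes lowest on the neuron side, ranked by the upper interval limit, were Tfap2c, Sox3, Pax6, Neurog1, Aurka and 7 others. Tfap2c, an AP-2 factor of cortical progenitors, held 9.36 CPM on the neuron side and 236 CPM on the Eomes/Neurog2 side of Foxq1iECKO, with log2 ratios of -4.66 in Foxq1iECKO and -4.80 in Foxq1flox/flox. Sox3, a SoxB1 factor of neural progenitors, held 2.08 and 69.2 CPM in Foxq1iECKO and 0.891 and 47.3 CPM in Foxq1flox/flox. Pax6, the radial glial factor upstream of Neurog2 and Eomes, held 11.4 and 155 CPM in Foxq1iECKO and 6.24 and 132 CPM in Foxq1flox/flox. Neurog1 and Aurka, a mitotic kinase, were at 0 UMIs on the neuron side of Foxq1iECKO and at 0.891 CPM each on that of Foxq1flox/flox. The others were the cell cycle genes Pbk, Kif4, Cenpf, Rrm2, Tpx2, Prc1 and Bub1.

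**Figure D2:**
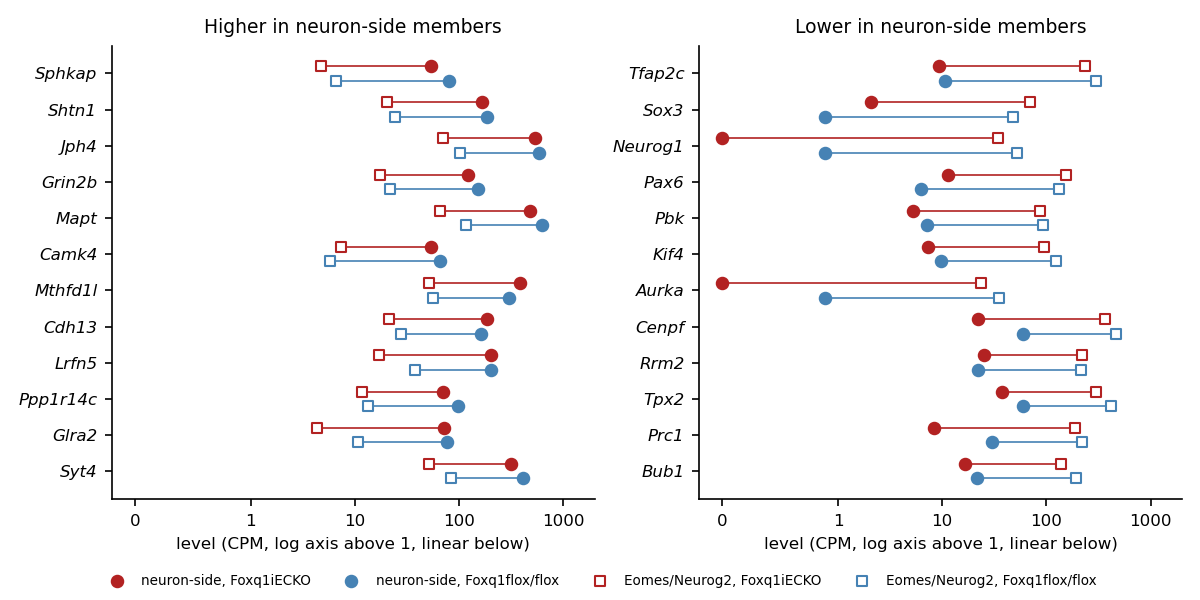
Level (CPM; log axis above 1, linear below) of the 12 genes highest on the neuron side (left) and the 12 lowest (right), in neuron-side members (filled circles) and in members with an Eomes or Neurog2 UMI (open squares), for Foxq1iECKO (red) and Foxq1flox/flox (blue). Shtn1 lies at 166 and 183 CPM and Tfap2c at 9.36 and 10.7 CPM on the neuron side of Foxq1iECKO and Foxq1flox/flox, and Aurka and Neurog1 had no UMI on the neuron side of Foxq1iECKO.

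Between the genotypes, 382 of 7246 genes at 20 or more CPM were higher by size in Foxq1iECKO members (5.27%) and 436 lower (6.02%). A gene counts as higher or lower by size here when its ratio was at least 1.5 and its counting interval excluded 1. Lists were read at 10 or more CPM, where 5.91% of 9267 genes were higher and 6.43% lower, and the median log2 ratio over all genes was -0.04. By size, 16 of 19 radial glia genes were higher, 12 of 25 pan-neuronal and 15 of 26 synaptic and transmitter genes lower, and 0 of 15 intermediate progenitor genes either. Because the stage classes took different shares of the members in each library, the main groups are given for all members and then within the classes. In a bulk sum of this kind, fewer cells of a type and less RNA per cell cannot be told apart.

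Foxq1 itself (ENSMUSG00000038415, chr13:31556134-31560976, plus strand, mm10) was near the level of free RNA in the members. It held 7.59 CPM (30 UMIs) in Foxq1iECKO members and 11.6 CPM (27 UMIs) in Foxq1flox/flox members, a log2 ratio of -0.61 [-1.41, 0.19]. Macrophages held 6.36 and 9.14 CPM, and the endothelial class 273 and 476 CPM. The transcript A530084C06Rik lies on the opposite strand over a Foxq1 exon, and the sources used here do not say whether reads were counted by strand, so reads of such a pair cannot be told apart. The same holds for the other named genes whose exons are overlapped on the opposite strand: Angpt1, C1ql3, Camk4, Ccnd2, Ccne2, Dll1, Ebf3, Emx2, Eomes, Grin2b, Hs3st4, Id4, Ina, Kif4, Lhfpl3, Neurod1, Notch1, Notch3, Nrarp, Nrn1, Plppr4, Ppp1r14c, Prc1, Prdm8, Reln, Rnd2, Shox2, Sox5, Syt4, Tbc1d30, Tenm1, Trp73, Ttyh1, Wnt7b and Zic1. Nor do they give the part of Foxq1 that is deleted, so a count at its 3′ end does not check the allele.

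Of 19 measured radial glia genes, 16 were higher by size in Foxq1iECKO members and none lower, with a median log2 ratio of 0.75. The list summed to 3913 CPM in Foxq1iECKO members and 2056 CPM in Foxq1flox/flox members. It was also above the Foxq1flox/flox sum in the other neurons (2998 and 1797 CPM), the GABAergic class (3614 and 2279 CPM) and the radial glia (11905 and 11192 CPM) of Foxq1iECKO. The same held in the macrophages (2260 and 1877 CPM) and the endothelial class (5351 and 5034 CPM). The direction was thus not particular to the members, and the part of RNA from other cells in it was not tested. Fabp7, the brain fatty acid binding protein of radial glia, held 392 CPM in Foxq1iECKO members and 70.9 CPM in Foxq1flox/flox members (2.47 [2.24, 2.71]). Ttyh1, a membrane protein of neural progenitors, held 165 and 36.5 CPM (2.18 [1.85, 2.52]), and Hes1, the repressor that carries out Notch signalling, 128 and 31.4 CPM (2.03 [1.67, 2.40]). After thinning, Hes1 was read in 10.6% and 4.73% of members and in 46.9% and 45.9% of endothelial cells. Slc1a3, the glutamate transporter GLAST, held 65.0 and 24.1 CPM, and Ednrb, an endothelin receptor, 54.1 and 10.3 CPM. Other genes of the list had smaller ratios. Vim (vimentin) stood at 987 and 507 CPM, Sox9 at 349 and 231 CPM, and Pax6 at 120 and 71.3 CPM. The Pax6 log2 ratio of 0.75 was -0.11 [-0.45, 0.24] with membership read at 1000 UMIs per barcode. Cdon, Nes and Ptprz1 were the 3 measured genes that were not higher by size.

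Fabp7 was read in more members as well as at a higher level. After thinning, 19.8% of Foxq1iECKO members and 9.88% of Foxq1flox/flox members held it (31.6% and 18.3% at full depth), against 76.0% and 75.6% of radial glia and 1.79% and 0.956% of macrophages. Its level was also higher in other cells of the Foxq1iECKO library, with 306.5 and 25.8 CPM in the other neurons, 2073 and 1572 CPM in radial glia and 25.0 and 6.75 CPM in macrophages, which should lack it. The part of free RNA in the members' difference was not tested. With called doublets removed the log2 ratio in members was 2.53, and with each member thinned to 2000 UMIs it was 1.72. The neural crest and glial marker list, which contains Fabp7, summed to 414 CPM in Foxq1iECKO members and 102 CPM in Foxq1flox/flox members. Among its other genes, Sox10 held 0.253 and 0.430 CPM, Foxd3 was at 0 UMIs in both and S100b at 0 and 0.859 CPM. The list had 2 genes measured at 10 or more CPM. Of these 1 was higher by size and none lower, with a median log2 ratio of 0.935.

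Radial glia genes were then read within the stage classes. In Eomes/Neurog2 members, where 5.21% of 9166 genes were higher and 5.85% lower, 11 of 20 radial glia genes were higher and none lower, with a median of 0.86. In neuron-side members, where 3.96% of 9286 genes were higher and 4.0% lower, 2 of 19 were higher and 1 lower, with a median of 0.27. Fabp7 held 493 CPM in Eomes/Neurog2 members of Foxq1iECKO and 93.7 CPM in those of Foxq1flox/flox. In neuron-side members it held 80.1 and 46.3 CPM. Hes1 and Ttyh1 behaved alike, with 160 and 39.8 CPM and 208 and 44.8 CPM on the Eomes/Neurog2 side but 29.1 and 22.3 CPM and 33.3 and 27.6 CPM on the neuron side. Sox2 and Pax6, by contrast, held 158 and 125 CPM and 155 and 132 CPM on the Eomes/Neurog2 side and did not pass there. The difference between the 2 classes in their genotype ratios was not tested.

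**Figure D3:**
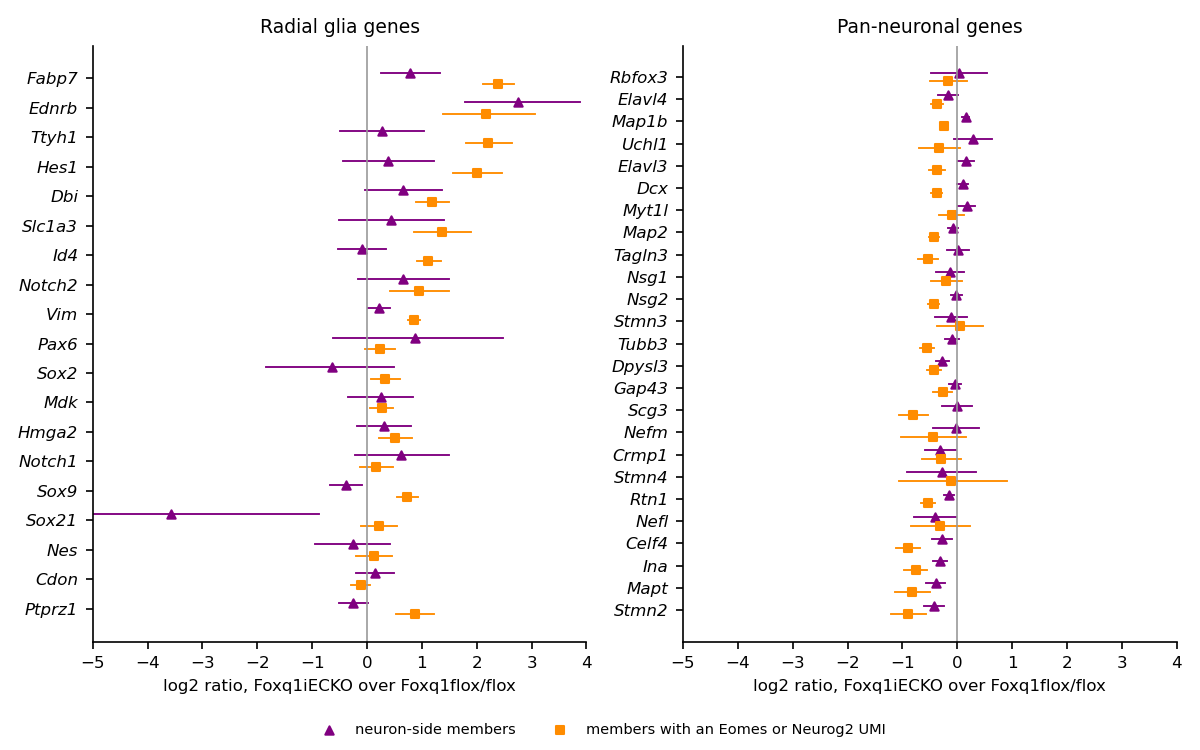
Log2 ratio of CPM, Foxq1iECKO over Foxq1flox/flox, of each radial glia gene (left) and pan-neuronal gene (right) in neuron-side members (triangles) and in members with an Eomes or Neurog2 UMI (squares); lines are counting 95% intervals. Fabp7 lies at 2.39 and Hes1 at 2.00 in the Eomes/Neurog2 members, and the pan-neuronal genes of neuron-side members lie near 0, Stmn2 lowest at -0.43.

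Notch signalling keeps radial glia from differentiating. In all members 7 of 19 Notch pathway genes were higher by size and none lower, namely Hes1, Hey1, Nrarp, Notch1, Notch2, Notch3 and Lfng. Hey1, a Notch effector, held 202 CPM in Foxq1iECKO members and 116 CPM in Foxq1flox/flox members, and Notch2, a receptor, 52.6 and 25.8 CPM. The ligand Dll1, at 120 and 108 CPM, and the nuclear partner Rbpj, at 296 and 255 CPM, were not among them. On the Eomes/Neurog2 side 5 of 20 Notch genes were higher and 1, Hes6, lower, with a median of 0.07, and in neuron-side members none of 18 passed in either direction. The median over all members was 0.22, and -0.0011 with the stage classes weighted alike. Of 16 bHLH and Id genes, Id3, Id4, Hes1 and Hey1 were higher and Bhlhe23 lower, with a median of 0.06. On the Eomes/Neurog2 side those 4 were higher and 4 of 17 lower, namely Neurog1, Neurod4, Bhlhe23 and Hes6. Id4, which keeps bHLH factors from binding DNA, held 308 and 134.5 CPM in all members. Notch3 is also a pericyte marker. The pericyte list, with 3 of 4 measured genes higher and Higd1b at 0 in both libraries, summed to 143 CPM in Foxq1iECKO members and 78.2 CPM in Foxq1flox/flox members, and the part of such RNA in the Notch3 value was not tested.

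Intermediate progenitor genes did not differ by size over all members, with 0 of 15 higher, 0 lower and a median of 0.01. Elavl2, a neuronal RNA-binding protein, held 742 CPM in Foxq1iECKO members and 782 CPM in Foxq1flox/flox members, and Insm1, which promotes the delamination of basal progenitors, 466 and 510 CPM. Btg2, an antiproliferative gene of cells about to make neurons, held 161 and 117 CPM. Within the Eomes/Neurog2 members the list leaned lower in Foxq1iECKO, with a median of -0.34 and 4 genes lower by size. These were Cbfa2t2, Hes6, Gadd45g and Neurog1. Insm1 held 545 and 779 CPM there. The genes that define this class were also lower without passing, with Eomes at 871 and 1071 CPM and Neurog2 at 706 and 898 CPM, values that the choice of members touches.

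Pan-neuronal genes were lower in Foxq1iECKO members, with 12 of 25 lower by size, none higher and a median of -0.53. Stmn2, a microtubule regulator of growing axons, held 156 CPM in Foxq1iECKO members and 344 CPM in Foxq1flox/flox members (-1.14 [-1.30, -0.99]). Mapt held 164 and 358 CPM (-1.12), and Ina, a neuronal intermediate filament, 343 and 692 CPM (-1.01). Rtn1 and Gap43, the growth-cone protein, held 824 and 1362 CPM and 487 and 742 CPM. Early markers differed less, with Dcx at 1002 and 1281 CPM and Map1b at 2411 and 2823 CPM. A share of members told the same: after thinning, 22.0% of Foxq1iECKO members and 35.2% of Foxq1flox/flox members held Stmn2 (30.9% and 45.6% at full depth). In macrophages 0.858% and 0.695% did.

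Pan-neuronal genes were likewise read within the stage classes. In neuron-side members none of the 25 genes passed in either direction and the median was -0.10, with Gap43 at 1152 and 1186 CPM and Stmn2 at 430 and 579 CPM. In Eomes/Neurog2 members 5 were lower and the median was -0.38. These 5 were Ina, Celf4, Mapt, Stmn2 and Scg3. Stmn2 held 67.5 and 125 CPM there, and Celf4, a neuronal RNA-binding protein, 129 and 240 CPM. With the stage classes weighted alike in both libraries the median over all members was -0.25.

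Synaptic and transmitter genes had 15 of 26 lower in Foxq1iECKO members, none higher and a median of -0.62. Syt4, a synaptotagmin, held 115 CPM in Foxq1iECKO members and 238 CPM in Foxq1flox/flox members. The sodium channel Scn2a held 16.9 and 44.7 CPM (-1.40), and the AMPA receptor subunit Gria1 10.1 and 30.9 CPM (-1.61). Slc17a6 held 414 and 455 CPM and did not pass. In neuron-side members 4 of 27 were lower and 1 higher, with a median of -0.27, and in Eomes/Neurog2 members 6 of 26 were lower. Scn2a and Gria1 were lower by size in both classes.

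Deep-layer and preplate genes had 4 of 13 lower over all members and a median of -0.28. Bcl11b (CTIP2), the factor of corticospinal neurons, held 629 CPM in Foxq1iECKO members and 997 CPM in Foxq1flox/flox members (-0.66 [-0.75, -0.58]). The others lower by size were Zfpm2, Ldb2 and Hs3st4. Fezf2, at 218 and 231 CPM, and Sox5, at 433 and 549 CPM, did not pass. In neuron-side members Bcl11b held 1337 and 1383 CPM and no gene of the list passed in either direction. In Eomes/Neurog2 members it held 402 and 638 CPM. Pallial regional genes had 4 of 15 higher (Emx2, Pax6, Dmrt3 and Sp8) and Lmo3 lower. Emx2, a homeobox factor of the medial pallium, held 200 and 127 CPM, while its relative Emx1 held 74.8 and 90.2 CPM.

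Cell cycle genes divided by phase. Of 35 S phase genes, 17 were higher in Foxq1iECKO members and 1, Ccne2, was lower, with a median of 0.55. With membership read at 1000 UMIs per barcode this median was 0.098, and 0.25 with the stage classes weighted alike. Pcna, the replication clamp, held 364 CPM in Foxq1iECKO members and 208 CPM in Foxq1flox/flox members. Of 49 G2/M genes 3 were higher and 1 lower, with a median of 0.09, and Top2a held 465 and 483 CPM. Within Eomes/Neurog2 members the S phase median was 0.27, with 2 of 35 higher, and the G2/M median -0.18. In neuron-side members 19 of 41 G2/M genes were lower in Foxq1iECKO and none higher, with a median of -0.76. Mki67 held 78.0 and 135 CPM there and Cenpf, a kinetochore protein, 21.8 and 59.7 CPM. After thinning, Mki67 was read in 8.08% [4.7, 12.8] of neuron-side members in Foxq1iECKO and 6.78% [3.9, 10.8] in Foxq1flox/flox. At full depth these shares were 12.2% and 11.7%, so the lower Mki67 level was not matched by a lower share of members. Top2a was read in 7.58% and 10.6% of neuron-side members after thinning (11.3% and 14.9% at full depth). Ccnd2, the D-type cyclin of cortical progenitors, held 1538 and 800 CPM in all members and 584 and 309 CPM on the neuron side.

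**Figure D4:**
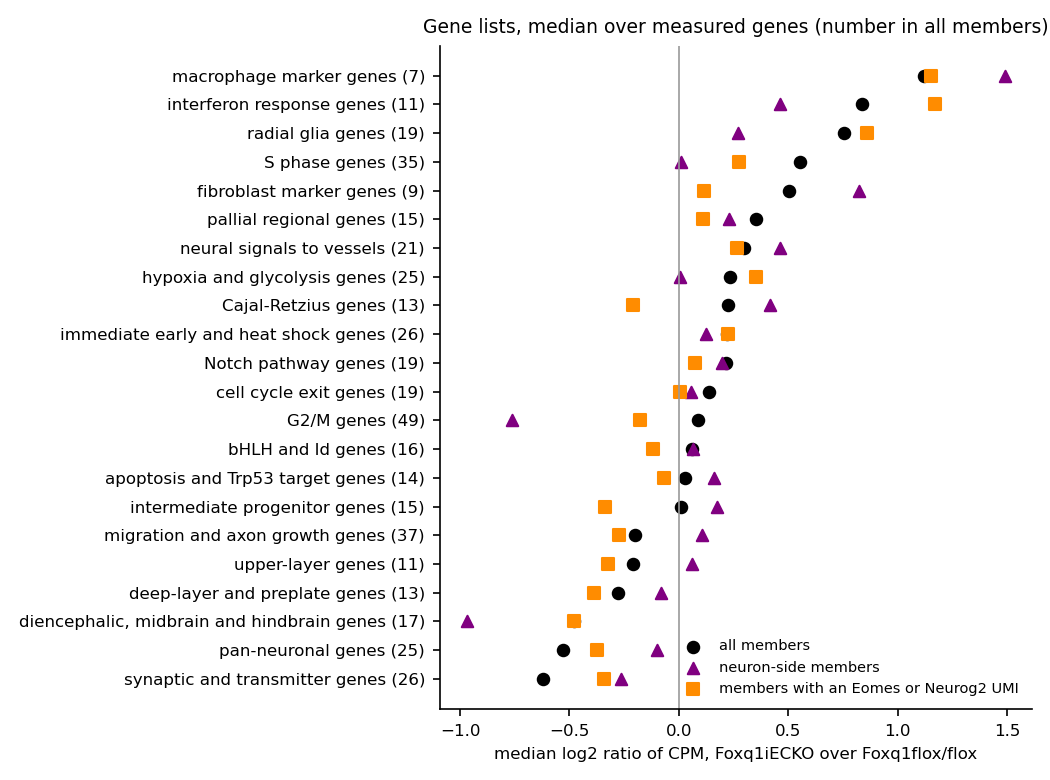
Median log2 ratio of CPM, Foxq1iECKO over Foxq1flox/flox, of gene lists with 5 or more measured genes, in all members (circles), neuron-side members (triangles) and members with an Eomes or Neurog2 UMI (squares). The lists of genes of the membership rule are left out, and numbers in brackets are the genes measured in all members. Radial glia genes lie at 0.75, 0.27 and 0.86 in that order, pan-neuronal genes at -0.53, -0.10 and -0.38, and G2/M genes at 0.09, -0.76 and -0.18.

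The strongest single-gene differences were ranked without genes over 5 times higher in endothelial cells, macrophages or all other barcodes than in members, which left out Lyve1, Ednrb, Hes1 and Rsad2. The 10 genes then highest by the lower limit of the ratio were Gmnc, Aldoc, Fabp7, Rspo2, Ttyh1, Pdpn, Psat1, Cenpw, Cldn12 and Dbi. Gmnc, which encodes the geminin relative GEMC1, held 35.7 CPM in Foxq1iECKO members and 3.01 CPM in Foxq1flox/flox members (3.57 [2.49, 4.91]). Aldoc, the aldolase of the glial lineage, held 43.5 and 4.73 CPM (3.20), and Rspo2, a secreted enhancer of Wnt signalling, 21.0 and 2.15 CPM (3.29). Psat1, an enzyme of serine synthesis, held 168 and 50.7 CPM. Wnt8b, a Wnt ligand of the dorsomedial forebrain, held 16.4 and 0.859 CPM, the Foxq1flox/flox value from 2 UMIs (4.26 [2.35, 7.33]). Aldoc sat on the Eomes/Neurog2 side, with 57.1 and 7.47 CPM against 1.04 and 1.78 CPM on the neuron side.

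The 10 lowest by the upper limit, ranked with the same genes left out, were Tfap2b, Plppr4, Lhfpl3, Elmod1, Tbc1d30, Shox2, C1ql3, Adrb1, Rgs7 and Tenm1. Tfap2b, an AP-2 transcription factor, held 22.3 CPM in Foxq1iECKO members and 87.6 CPM in Foxq1flox/flox members (-1.98 [-2.36, -1.61]). Shox2, a homeobox gene, held 29.3 and 85.1 CPM (-1.54). Elmod1, which acts on Arf GTPases, held 26.6 and 80.3 CPM (-1.60). Plppr4, a lipid phosphatase relative of young neurons, held 6.57 and 28.4 CPM and C1ql3, a secreted synaptic protein, 6.32 and 23.6 CPM. Within neuron-side members Elmod1 held 73.8 and 140 CPM and Plppr4 17.7 and 50.8 CPM.

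Cajal-Retzius genes did not move one way over all members, with 1 of 13 higher (Trp73), 1 lower (Ebf3) and a median of 0.23. Reln, which encodes the secreted guide Reelin, held 377 CPM in Foxq1iECKO members and 274.5 CPM in Foxq1flox/flox members (0.46). Trp73, the p53 relative that marks Cajal-Retzius cells of the hem, held 24.0 and 13.3 CPM (0.85), and Ebf3, a helix-loop-helix factor of these cells and of other neurons, 184 and 287 CPM (-0.64). Members that held both Reln and Trp73 numbered 39 (5.39% [3.86, 7.29]) in Foxq1iECKO and 12 (2.27% [1.18, 3.93]) in Foxq1flox/flox, a log2 ratio of 1.25 [0.28, 2.32]. In neuron-side members 3 of 12 genes of the list were higher (Reln, Trp73 and Cxcr4) and 2 lower. Reln held 722 and 355 CPM there and Trp73 34.3 and 4.46 CPM. After thinning, Reln was read in 23.7% of neuron-side members in Foxq1iECKO and 25.85% in Foxq1flox/flox (29.0% and 31.45% at full depth). Its higher level on the neuron side was thus not matched by a higher share of members. The thinned shares were 18.7% and 19.1% over all members and 18.1% and 12.8% in Eomes/Neurog2 members. In Eomes/Neurog2 members 1 of 13 was higher and 3 lower, with Trp73 at 20.7 and 21.6 CPM.

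Genes of the diencephalon, midbrain and hindbrain were lower in Foxq1iECKO members, with 8 of 17 lower by size, 1 higher (Gata2) and a median of -0.48. Tcf7l2 held 195 CPM in Foxq1iECKO members and 296 CPM in Foxq1flox/flox members (-0.61). After thinning, 11.98% of Foxq1iECKO members and 10.49% of Foxq1flox/flox members held a Tcf7l2 transcript (23.2% and 17.77% at full depth). Its lower level was thus not matched by a lower share of members. Thinned macrophages held Tcf7l2 in 23.53% and 22.94%, so this gene alone does not mark cells of these regions here. Pou4f1, a sensory and midbrain factor, held 19.0 and 53.7 CPM (-1.50), and Otp, a hypothalamic homeobox gene, 10.9 and 28.4 CPM (-1.38). The Otp ratio depended on membership, at 2.51 with membership read at 1000 UMIs and -0.09 with members that held none of the 4 endothelial genes. Tfap2b and Shox2 belong to the same list. In neuron-side members 6 of 16 were lower, 1 was higher and the median was -0.97. In Eomes/Neurog2 members 7 of 18 were lower and none higher, with Tcf7l2 at 139 and 305 CPM and Shox2 at 12.4 and 83.0 CPM. On the neuron side these 2 genes held 367 and 287 CPM and 82.1 and 87.3 CPM. How far dissection set the mix of regional cells in each library was not tested.

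Of the genes that differed by size over all members, a part also passed with the stage makeup held alike. With the stage classes weighted alike, 234 of the 382 and 166 of the 436 still passed.

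Signals that neural cells send to vessels had 5 of 21 genes higher in Foxq1iECKO members and 1 lower, with a median of 0.30. Ptn (pleiotrophin) held 150 CPM in Foxq1iECKO members and 59.3 CPM in Foxq1flox/flox members (1.34), and Mdk (midkine) 203 and 130 CPM (0.65). Itgb8, the integrin subunit by which neural cells activate TGF-beta at brain vessels, held 47.0 and 27.1 CPM (0.80), and Angpt1, a ligand of the endothelial receptor TIE2, 28.1 and 15.5 CPM (0.86). Wnt8b was the fifth. Sema3a, a repellent guidance signal, held 23.3 and 39.5 CPM and was the 1 lower. Vegfa, the main vascular growth factor, held 67.5 and 58.9 CPM, and Wnt7b, which drives barrier formation, 19.5 and 18.9 CPM. Neither passed.

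RNA of other cell types was present at low levels and differed between the libraries. The macrophage list summed to 321 CPM in Foxq1iECKO members and 156 CPM in Foxq1flox/flox members, against 7711 and 7615 CPM in macrophages. Of its 7 measured genes 6 were higher, among them Mrc1 (67.3 and 30.9 CPM, a log2 ratio of 1.12) and Lyve1 (26.0 and 2.15 CPM), and none of the list's genes was at 0. With called doublets removed Mrc1 had a log2 ratio of -0.41 [-0.92, 0.11]. Of 11 interferon response genes 6 were higher and 1, Stat2, lower, with a median of 0.835. In Foxq1iECKO this list was also above the Foxq1flox/flox sum in the other neurons (360 and 224 CPM) and the GABAergic class (466 and 270 CPM). The same held in the radial glia (239 and 195 CPM), the endothelial class (1532 and 1179 CPM) and the macrophages (4028 and 3163 CPM). Rsad2, an antiviral enzyme, held 43.5 and 8.59 CPM in members and 677 and 349 CPM in macrophages, and B2m 110 and 58.9 CPM in members. Without the 19 members of Foxq1iECKO and 7 of Foxq1flox/flox that held 3 or more macrophage genes, the interferon median was 0.32 and Rsad2 had a log2 ratio of 3.44. The median of the macrophage list was then 1.41, against 1.12 with these members kept. The part of macrophage RNA in the interferon values was not tested. The fibroblast list summed to 755 and 697 CPM, the endothelial list to 105 and 138 CPM and the erythroid list to 5.31 and 5.59 CPM. Of 9 measured fibroblast genes 3 were higher and none lower, with a median of 0.50. The fibroblast list summed to 970 and 712 CPM in neuron-side members and 686 and 684 CPM in Eomes/Neurog2 members. It stood at 4952 and 1716 CPM in the GABAergic class and 2073 and 1239 CPM in the other neurons.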

How the data were processed

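Single-cell libraries were built from CD31-bead-enriched embryonic brain cells, 1 per genotype, with a microwell system, per the labels' protocols. The deposited files hold raw UMI counts per gene and barcode. Tools named, per the submitters' processing notes, were STARsolo 2.7.11b and fastp 0.24.0, and the build was mm10. Order, settings, barcode filter and strand use were not given in the sources used here. Doublets were called in each library with scanpy 1.11.5 and kept. For each library, the UMIs of all cells in a class were added up and scaled to CPM. Ratios have exact conditional binomial 95% intervals, and shares exact Clopper-Pearson ones. The intervals were run on counts simulated from the counting model they assume, without variation between cells or libraries. That run does not check them against such variation. Thinning drew UMIs at random with a fixed seed. Computation used pandas 2.3.3, scipy 1.17.1, numpy 2.4.6 and matplotlib 3.10.9 under Python 3.11.15, and R 4.3.3 with edgeR 4.0.16 and DESeq2 1.42.0 for alternative scaling factors only.

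Genes were named by rule: the 10 highest and 10 lowest between genotypes by the interval limit nearer to 0 at 20 or more CPM, leaving out genes over 5 times higher in endothelial cells, macrophages or all other barcodes than in members of the same library, the 12 highest against other barcodes, the 12 highest and 12 lowest between stage classes, members of fixed gene lists, and the genes of the membership rule. Rankings left out haemoglobin genes, genes of the mitochondrial genome, those of ribosomal proteins, Y-linked genes with Xist and Tsix, and predicted genes. The contrast of neuron-side against Eomes/Neurog2 members and the examples picked within lists, Wnt8b among them, were chosen after values were seen. The members and lists were chosen with earlier results of these data known. For 2 duplicated symbols the gene with more UMIs was used. Some marker results, and members restricted by 1 marker, are not reported here.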

Additional observations from a re-analysis of the deposited data

How the results depend on the processing

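With 1 library per genotype, none of these values has a replicate check, and depth limits the low genes, where 1 or 2 UMIs can set a ratio. No paired analysis was possible because each genotype has a single library. The log2 ratio of the member share was 0.72 with 4 or more of the 7 genes required, and that of the neuron-side share was -0.30 with membership read at 1000 UMIs per barcode. Genes higher by size numbered 183 with that membership, 251 with members thinned to 2000 UMIs, 176 at 50 or more CPM and 745 with no minimum, against 382. Genes lower by size numbered 209 with the stage classes weighted alike, 186 at 50 or more CPM and 797 with no minimum, against 436. TMM scaling gave 415 higher and 369 lower, and median of ratios scaling 411 and 373. Of 27 list medians 21 moved with membership at 1000 UMIs, among them radial glia genes (0.42), pan-neuronal genes (-0.20), S phase genes (0.098) and diencephalic, midbrain and hindbrain genes (-0.13). Some log2 ratios changed sign. These were Mrc1 (-0.41) with called doublets removed, and Gata2 (-0.55), Otp (2.51), Pax6 (-0.11) and the median of endothelial markers (0.31) with membership at 1000 UMIs. The Cajal-Retzius median was -0.023 in thinned members and -0.21 in Eomes/Neurog2 members, where Trp73 had -0.058. With stage classes weighted alike, the Notch median was -0.0011, the cell cycle exit median -0.11 and Cdh13 0.086. In neuron-side members, chosen as an alternative after seeing the data as were the Eomes/Neurog2 members, the medians turned for upper-layer genes (0.059), migration and axon growth genes (0.11), endothelial markers (0.23) and neural crest and glial markers (-0.19). There too Cdh13 (0.19), Cenpw (-0.31), Id3 (-0.58), Id4 (-0.089), Lrfn5 (0.0034), Notch3 (-0.61), Scg3 (0.00026), Sox2 (-0.64), Sox9 (-0.38) and Tcf7l2 (0.36) had the other sign. Causes of these shifts were not tested.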

Other observations

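Hypoxia and glycolysis genes were a further group with members on both sides. Of 25 measured genes 4 were higher by size in Foxq1iECKO members and 2 lower, with a median log2 ratio of 0.24. Pgk1 and Ldha, enzymes of glycolysis and lactate formation, held 456 CPM in Foxq1iECKO members against 274 CPM in Foxq1flox/flox members and 253 against 143 CPM, and Egln3, an oxygen sensor that hypoxia induces, held 14.4 against 5.59 CPM. Aldoc was the fourth. Pfkp, at 14.2 against 21.9 CPM, and Ndrg1, at 7.08 against 15.0 CPM, were the lower ones. In members with an Eomes or Neurog2 UMI 7 of 24 were higher and none lower, and in neuron-side members none of 23 passed in either direction.

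Immediate early and heat shock genes, which cell dissociation can induce, had 7 of 26 higher and none lower, with a median of 0.22. Egr3 held 27.8 CPM in Foxq1iECKO members against 7.73 CPM in Foxq1flox/flox members, and Zfp36 held 93.1 against 45.1 CPM, with 1817 and 1942 CPM in macrophages. Fos, at 276 against 222 CPM, Jun, at 294 against 282 CPM, and Egr1, at 299 against 308 CPM, did not pass. Hspa1a and Hspa1b, which were both higher, are near-identical copies whose reads counting can split. None of 14 apoptosis and Trp53 target genes passed in either direction, with Mdm2 at 79.7 against 76.9 CPM. Of 37 migration and axon growth genes 6 were lower and none higher, among them Robo1, a receptor for SLIT guidance signals, at 200 against 337 CPM.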
